A study of Mus musculus with 2 samples.

Results

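The acute phase genes Saa1, Saa3, Lcn2 and C3 and the protease inhibitor genes Slpi and Timp1 were followed by genotype and cell class in droplet RNA counts of mouse intestine at E18.5. They are 6 of the 52636 gene IDs in the count matrices. The genes had been selected on their higher counts in one of the libraries, so the difference between genotypes is given as a description. The first library carried Casp8 C362A/C362A together with Mlkl -/- (called Casp8-mutant). C362A exchanges the cysteine that caspase-8, a protease of cell death, needs for catalysis. The other library was Mlkl -/- alone (called Mlkl-null). Mlkl, which executes necroptosis by permeabilising the plasma membrane, was therefore missing from both, and both were on the C57BL/6 background. The labels call the tissue whole intestine in one place and small intestine in another, and they state neither the sex nor the number of the embryos behind a library. With 1 library per genotype there was no test and no replicate check, and genotype, embryo, litter and preparation cannot be told apart. All intervals are at 95% and reflect counting error alone.

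Acute phase proteins are secreted in infection and injury, chiefly by the liver in response to interleukin-6, interleukin-1 and tumour necrosis factor, and some are also made locally by epithelia and other barrier cells. Serum amyloid A proteins bind lipids and retinol, lipocalin-2 withholds iron from bacteria by binding their siderophores, and C3 is the central component of the complement cascade. Slpi inhibits neutrophil elastase and cathepsin G at mucosal surfaces, and Timp1 inhibits matrix metalloproteinases.

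Sequences upstream of the serum amyloid A genes are shown because Saa1 and Saa3, neighbours on chromosome 7, differed in the cell classes that held them. Each stretch runs from 150 to 51 bases before the RefSeq start (build GRCm38.p6), 5′ to 3′ on the strand of the gene. Capitals mark a kappaB pattern (GGG, 5 unspecified bases, CC) in Saa1 and in its near copy Saa2, and an interferon-response pattern (GAAA, 2 unspecified bases, GAAA) in Saa3.
Saa1, chr7:46743031-46743130, minus strand: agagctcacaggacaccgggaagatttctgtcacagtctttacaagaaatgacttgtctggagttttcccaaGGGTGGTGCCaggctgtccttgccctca
Saa2, chr7:46751683-46751782, plus strand: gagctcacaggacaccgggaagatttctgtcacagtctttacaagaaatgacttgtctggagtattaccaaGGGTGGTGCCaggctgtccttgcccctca
Saa3, chr7:46715727-46715826, minus strand: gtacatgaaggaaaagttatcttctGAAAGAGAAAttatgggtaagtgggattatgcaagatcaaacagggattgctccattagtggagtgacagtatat
Over the 150 bases before the start, Saa1 and Saa2 were identical in 147 of 151 aligned columns (97.4%), whereas Saa1 and Saa3 were 46.2% identical. Both strands of the 250 bases before each start were searched. The kappaB pattern occurred in 45.8% of 32851 promoters and also before Lcn2, Timp1 and C3, and the interferon-response pattern occurred in 2.98%. A STAT pattern (TTCNNNGAA, in 7.02% of promoters) and a C/EBP pattern (TTGCNNCAA, in 1.74%) matched before none of the 6 genes or Saa2, and no searched pattern matched before Slpi. These matches describe letters and not binding sites.

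The deposited matrices contained 2804929 UMIs (unique molecular identifiers, each standing for a captured transcript) in 1014 Casp8-mutant barcodes and 6290008 UMIs in 1478 Mlkl-null barcodes, and 2 barcodes occurred in both. After filtering, 873 Casp8-mutant cells with a median of 1957 UMIs and 1435 Mlkl-null cells with a median of 3707 UMIs were kept. Classes named from markers are written with "-like". Epithelial-like cells numbered 588 in the Casp8-mutant and 1184 in the Mlkl-null library, fibroblast-like cells (stroma) 29 and 29, mesothelial-like cells 25 and 9, and myeloid-like cells 106 and 61. Granulocyte-like cells (23) and hepatocyte-like cells (7) were found in the Casp8-mutant library alone. The defining markers of the 4 shared classes were detected in both libraries, except Twist1 in Casp8-mutant fibroblast-like cells. Their summed level was lower in the Casp8-mutant library in each class, for example 17943 against 48380 CPM (the usual scaling of UMIs to the total of the class) in epithelial-like cells. Apart from 12 Mlkl-null cells, the epithelial-like clusters came from 1 library each, as did the myeloid-like and fibroblast-like ones. Granulocyte transcripts were spread through the Casp8-mutant library. All 16 granulocyte markers, at a summed 3618 CPM, were detected in Casp8-mutant epithelial-like cells, against 11 of 16 at 37.4 CPM in Mlkl-null ones. S100a8, a granulocyte transcript, had a UMI in 563 of 588 Casp8-mutant epithelial-like cells, against 49 of 1184 in the Mlkl-null library.

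All 6 genes had a higher level over all cells in the Casp8-mutant library. At least 2-fold higher were 6 of 6, where 17.3% of the 15326 genes with 20 or more UMIs over both libraries passed the same fold. Among genes with that many UMIs in a class, 5 of 5 were higher in epithelial-like cells (18.2% of all genes), 3 of 4 in mesothelial-like cells (15.2%) and 1 of 1 in myeloid-like cells (13.3%), while none of the 6 was measured in fibroblast-like cells (11.6%). The contrast is the one the genes were selected on, so nothing is read from these counts. Granulocyte RNA moved with them, and its part was not tested. Leaving out cells with 3 or more granulocyte marker UMIs removed 96.8% of Casp8-mutant epithelial-like cells, so that 19 remained, and 92.0% of the mesothelial-like ones, so that 2 remained. Then 1 of 1 measured gene was higher in epithelial-like cells, 1 of 2 in mesothelial-like cells and 3 of 3 over all cells.

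**Figure D1:**
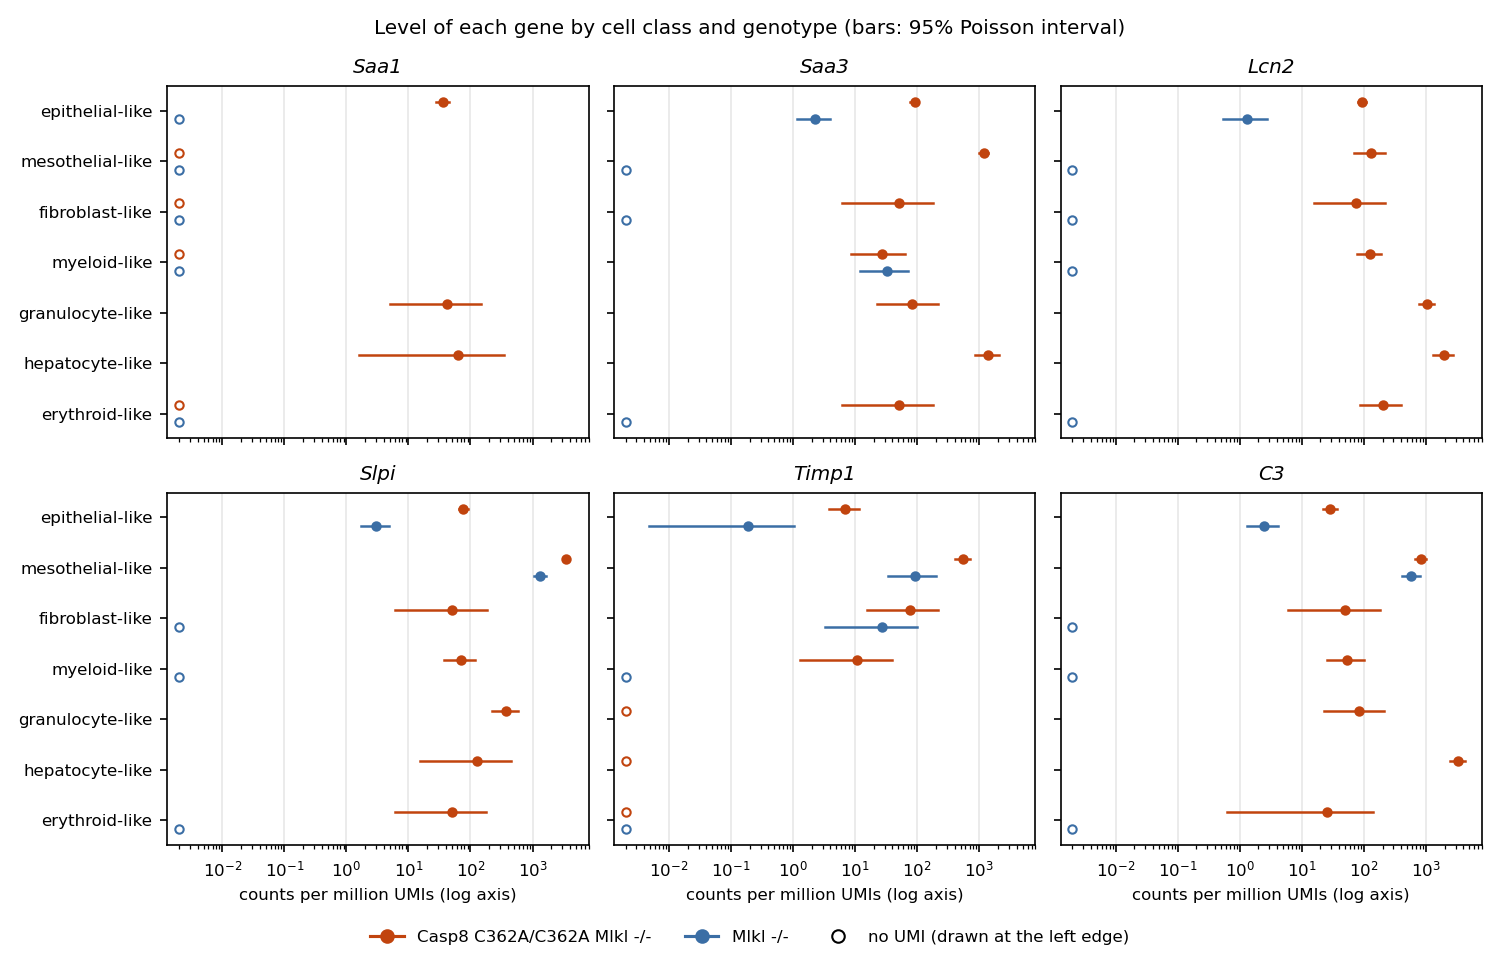
Level of each gene in CPM (log axis) in 7 cell classes, with the Casp8-mutant library above the Mlkl-null library. Lines are 95% Poisson intervals, and open circles at the left edge mark classes with no UMI. Slpi stood at 3453 CPM in Casp8-mutant and 1330 CPM in Mlkl-null mesothelial-like cells, and Saa1 had no UMI in any Mlkl-null class.

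Saa1 (chromosome 7, 46740497 to 46742980, minus strand, build GRCm38, protein coding) encodes a serum amyloid A protein that circulates during the acute phase. It had 77 UMIs (29.6 CPM, 23.4 to 37.0) in the Casp8-mutant library and 0 UMIs in the Mlkl-null library. Epithelial-like cells held 73 of the 77 UMIs, at 35.9 CPM (28.2 to 45.2), against 0 UMIs in Mlkl-null epithelial-like cells. With the Mlkl-null count set at a floor of 3 UMIs over the class, Saa1 was at least 63.7-fold higher. It was seen in 37 of 588 Casp8-mutant epithelial-like cells (6.29%, 4.47 to 8.57), with up to 14 UMIs in a cell. In the Mlkl-null library it was seen in 0 of 1184 cells. At the limit of 3 counts used here for a count of 0, that allows up to 0.253% of cells with a UMI, which is no limit on cells that express the gene. With every cell thinned to 2000 UMIs, which left 352 Casp8-mutant and 1054 Mlkl-null cells, the shares were 4.55% and 0%. Saa1 was at 0 in mesothelial-like, fibroblast-like and myeloid-like cells of both libraries.

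RNA released from broken cells can give UMIs in cells that do not express a gene, so each Casp8-mutant epithelial level was set beside a pool of 230 other Casp8-mutant cells (median 1533 UMIs), made without the mesothelial-like, granulocyte-like and hepatocyte-like classes. Cells of the pool may express a gene themselves, so its level is not a measure of released RNA alone. Saa1 had 1 UMI in this pool (2.52 CPM), and its epithelial level was 9.57 times as high (2.48 to 571). Saa1 thus stood above the level of this pool. The classes left out held few Saa1 UMIs, with 2 in granulocyte-like, 1 in hepatocyte-like and 0 in mesothelial-like cells. In Casp8-mutant barcodes rich in haemoglobin, Saa1 was at 41.4 CPM of the other UMIs (5.02 to 150, from 2 UMIs). That interval includes the epithelial level of 35.9 CPM. No difference from these barcodes or from the classes left out is read.

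Saa2 had 13 UMIs in the Casp8-mutant library, 12 of them in epithelial-like cells, and 0 UMIs in the Mlkl-null library. In the last 400 bases, where 3′ libraries place their reads, 6.84% of the 50-base words of Saa1 also occurred in Saa2, so counts of the pair are in part uncertain. None occurred in Saa3. Saa4, a constitutive serum amyloid A, had 2 UMIs in the Casp8-mutant and 1 UMI in the Mlkl-null library.

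Saa3 (chromosome 7, 46711998 to 46715700, minus strand) encodes the serum amyloid A known mainly from cells outside the liver. It had 354 UMIs (136 CPM, 122 to 151) in the Casp8-mutant library and 18 UMIs (2.92 CPM, 1.73 to 4.61) in the Mlkl-null library, a ratio of 45.5 (29.1 to 79.7). In epithelial-like cells it had 184 UMIs (90.6 CPM) in the Casp8-mutant and 12 UMIs (2.26 CPM) in the Mlkl-null library, a ratio of 38.7 (22.4 to 79.2). Unlike Saa1, Saa3 thus had UMIs in both libraries. Of the 12 Mlkl-null UMIs, 6 came from 1 cell. The Mlkl-null epithelial level was 0.284 times (0.103 to 0.959) that of 242 other Mlkl-null cells pooled in the same way. All 6 Saa3 UMIs of that pool lay in myeloid-like cells, so the pool does not give a level that its classes shared. With so few UMIs, the Mlkl-null epithelial level is not read as expression. Saa3 was seen in 16.8% of Casp8-mutant epithelial-like cells (median 2515 UMIs) and 0.507% of Mlkl-null ones (median 3902 UMIs), and after thinning to 2000 UMIs in 15.1% and 0.190%. In Casp8-mutant erythroid-like cells, which should lack it, 2 of 25 held it at a median of 1574 UMIs. Its Casp8-mutant epithelial level was 2.18 times (1.35 to 4.01) that of the pool of other classes, which was at 40.3 CPM.

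Both serum amyloid genes differed between clusters of Casp8-mutant epithelial-like cells. Saa1 was at 101 CPM (68.5 to 145) in the cluster led by Isg15 and Sprr2a3, at 65.4 CPM (44.4 to 92.8) in that led by Gm26917 and Reg3b, at 22.1 CPM (8.88 to 45.5) in that led by Tff3 and Zg16, and at 5.40 CPM (1.75 to 12.6) in that led by Reg3b and Reg3g. Isg15 is an interferon-stimulated gene, Tff3 and Zg16 are goblet cell genes, and Reg3b and Reg3g encode antimicrobial lectins. Saa3 followed the same order, at 250 CPM (197 to 314), 103 CPM (76.5 to 137), 63.1 CPM (38.6 to 97.5) and 44.3 CPM (from 41 UMIs). The interval of the first cluster lay clear of the others for Saa3, whereas for Saa1 the first and second overlapped. Depth ran the other way, with medians of 1630, 2526, 3121 and 5128.5 UMIs per cell in the same order of clusters. Its part in these levels was not tested. In the remaining 13 cells, led by Ifit1bl1 and Isg15, neither gene had a UMI. In the Tff3 and Zg16 cluster and in the Reg3b and Reg3g cluster the intervals of both genes overlapped those of the pool of other classes. The clusters were made without the 6 genes.

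Within the Casp8-mutant epithelium, 11 of 37 cells with Saa1 also held Saa3 (29.7%, 15.9 to 47.0), against 88 of 551 cells without Saa1. After thinning, the counts were 6 of 16 (37.5%, 15.2 to 64.6) and 47 of 336 (14.0%). Most cells held few of the 6 genes, with none in 260 cells, 1 in 213, 2 in 90, 3 in 22 and 4 or more in 3.

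**Figure D2:**
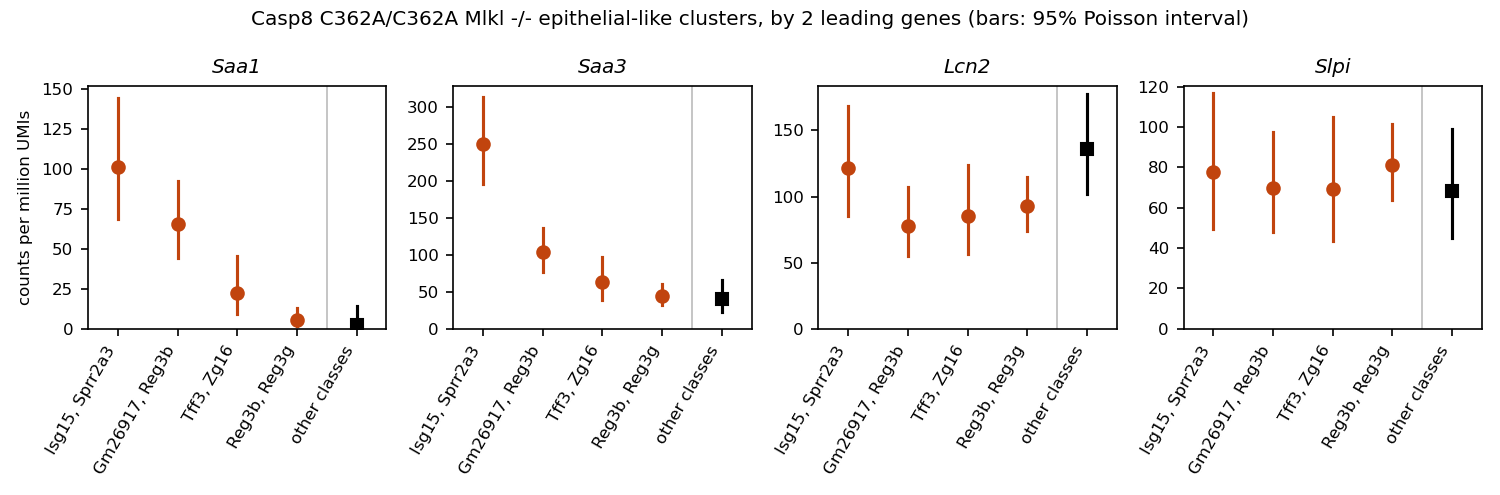
Levels in CPM of Saa1, Saa3, Lcn2 and Slpi in 4 Casp8-mutant epithelial-like clusters, named by their leading genes, and in the pool of other classes (black square), with 95% Poisson intervals. Saa1 (101 CPM) and Saa3 (250 CPM) were highest in the Isg15 and Sprr2a3 cluster, while the intervals of Lcn2 and of Slpi overlapped across the 4 clusters. Median depth rose from 1630 UMIs in the Isg15 and Sprr2a3 cluster to 5128.5 in the Reg3b and Reg3g cluster.

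Saa3 also had UMIs in mesothelial-like cells, which cover the outer surface of the gut. There were 128 UMIs (1172 CPM) in 25 Casp8-mutant cells and 0 UMIs in 9 Mlkl-null cells, at least 25.9-fold higher against the floor of 3 UMIs. The count came from 8 cells, of which the highest held 52, 35, 21, 12 and 5 UMIs. Without the highest cell of each library 76 UMIs remained, at least 8.33-fold higher. In myeloid-like cells Saa3 had 5 UMIs (26.9 CPM) in the Casp8-mutant library and 6 UMIs (32.4 CPM) in the Mlkl-null library, a ratio of 0.841 (0.200 to 3.26). A difference was not detectable at this depth. The myeloid-like clusters were led by Ccl24 and Pla2g7 or Ccl12 and Ccl6 in the Casp8-mutant library, and by Cd74 and H2-Ab1, Pf4 and Lyz2 or Cd74 and Apoe in the Mlkl-null library. The 7 Casp8-mutant hepatocyte-like cells held 22 Saa3 UMIs (1380 CPM) and 1 Saa1 UMI.

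Lcn2 (chromosome 2, 32384633 to 32388252, minus strand) encodes lipocalin-2, a protein of neutrophil granules that epithelia and hepatocytes also secrete. It had 339 UMIs (130 CPM) in the Casp8-mutant library and 15 UMIs (2.43 CPM) in the Mlkl-null library, a ratio of 52.0 (32.1 to 96.9). Epithelial-like cells had 190 UMIs (93.5 CPM) in the Casp8-mutant and 7 UMIs (1.32 CPM) in the Mlkl-null library, a ratio of 66.5 (33.8 to 179). The Casp8-mutant epithelial level was, however, 0.683 times (0.506 to 0.948) that of the pool of other classes, at 136 CPM. The epithelium thus held Lcn2 at a level below and not above that of the other classes of its library, and neither its ratio nor its share of 26.7% of cells is read as epithelial expression. In Casp8-mutant erythroid-like cells 4 of 25 held it.

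The highest Lcn2 levels were in classes that the Mlkl-null library lacked. Hepatocyte-like cells had 31 UMIs (1944 CPM, 1321 to 2759), and granulocyte-like cells had 50 UMIs (1038 CPM, 770 to 1368), in 12 of 23 cells. In myeloid-like cells Lcn2 had 23 UMIs (124 CPM, 78.4 to 185) in the Casp8-mutant library and 0 UMIs in the Mlkl-null library, at least 7.62-fold higher. Casp8-mutant erythroid-like cells stood at 200 CPM (86.5 to 395, from 8 UMIs), and the pool of other classes, which includes the myeloid-like cells, at 136 CPM, so the myeloid-like value is not read as expression either. Granulocyte markers were at a summed 3891 CPM (14 of 16 detected, Csf3r and Mmp8 at 0) in these cells, against 416 CPM (3 of 16) in the Mlkl-null ones. Their part in the result was not tested. Mesothelial-like cells had 14 UMIs in the Casp8-mutant and 0 in the Mlkl-null library.

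**Figure D3:**
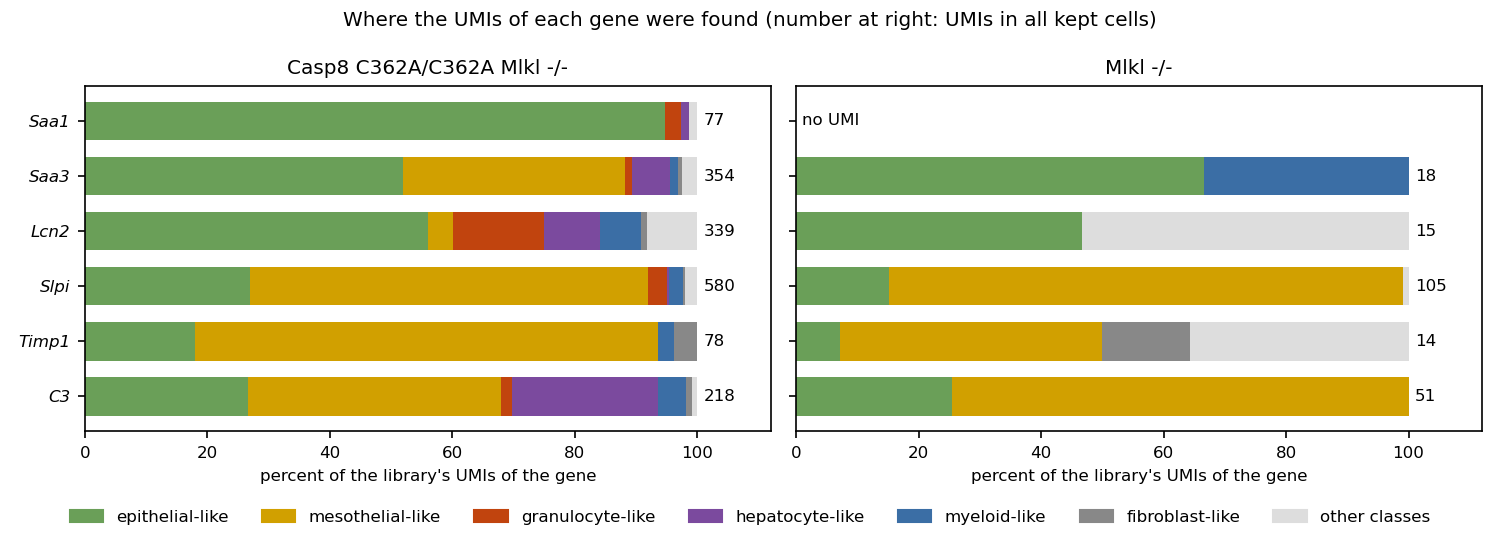
Share of each gene's UMIs by cell class, with the Casp8-mutant library left of the Mlkl-null library and UMI totals at the right of each bar. Of Slpi UMIs, 65.0% in the Casp8-mutant and 83.8% in the Mlkl-null library lay in mesothelial-like cells, while 94.8% of Casp8-mutant Saa1 UMIs lay in epithelial-like cells.

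Slpi (chromosome 2, 164354070 to 164389095, minus strand), the elastase inhibitor of mucosal secretions, had 580 UMIs (223 CPM) in the Casp8-mutant library and 105 UMIs in the Mlkl-null library, a ratio of 13.1 (10.6 to 16.3). Mesothelial-like cells were its main source in both. They had 377 UMIs (3453 CPM) in the Casp8-mutant and 88 UMIs (1330 CPM) in the Mlkl-null library, a ratio of 2.59 (2.05 to 3.31). The class was 25 of 873 Casp8-mutant cells and 9 of 1435 Mlkl-null cells, so both the number of such cells and their level enter the library-wide ratio. Few cells carried the counts. The highest held 205, 95, 34 and 18 UMIs in the Casp8-mutant library, and 64, 18, 4 and 2 in the Mlkl-null library. The Casp8-mutant cell with 205 was also the deepest of the class, with 18448 UMIs in all. Without the highest cell of each library there were 172 and 24 UMIs, a ratio of 4.05 (2.68 to 6.61), and with the 2 Casp8-mutant cells left by the granulocyte marker filter the log2 ratio was −0.87 (−6.77 to 1.07).

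In epithelial-like cells Slpi had 156 UMIs (76.8 CPM) in the Casp8-mutant and 16 UMIs (3.01 CPM) in the Mlkl-null library, a ratio of 24.8 (15.2 to 45.8), or 4.63 on the log2 scale. The log2 ratio was 1.90 (1.53 to 2.27) with each library clustered alone, 3.67 with cells gated one by one and 3.81 with cells thinned to 2000 UMIs. The Casp8-mutant level was 1.11 times (0.747 to 1.77) that of the pool of other classes, so the 2 levels could not be told apart. The epithelial value is not read as expression, and the part of released RNA was not tested. Granulocyte-like cells had 18 UMIs (374 CPM), and myeloid-like cells had 13 in the Casp8-mutant library and 0 in the Mlkl-null library. The annotated Mir7678 lies within Slpi on the same strand and took 340 UMIs in the Casp8-mutant and 76 in the Mlkl-null library. Summed with Slpi, the mesothelial-like level was 6210 CPM in the Casp8-mutant and 2418 CPM in the Mlkl-null library. Mir7678 stayed among the genes available for clustering. The related whey acidic protein gene Wfdc2 had 67 UMIs in the Casp8-mutant and 108 in the Mlkl-null library, a ratio of 1.48 (1.07 to 2.01).

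Timp1 (chromosome X, 20870166 to 20874735, plus strand) had 78 UMIs (30.0 CPM) in the Casp8-mutant library and 14 UMIs (2.27 CPM) in the Mlkl-null library, a ratio of 12.8 (7.43 to 25.3). Mesothelial-like cells had 59 UMIs (540 CPM) in the Casp8-mutant and 6 UMIs (90.7 CPM) in the Mlkl-null library, a ratio of 5.55 (2.58 to 16.9). Without the highest cell of each library the ratio was 3.67 (1.48 to 15.7). Epithelial-like cells had 14 UMIs and 1 UMI, and the Casp8-mutant level of 6.89 CPM lay within the interval of the pool of other classes. Fibroblast-like cells had 3 UMIs in the Casp8-mutant and 2 in the Mlkl-null library. Syn1, annotated over Timp1 on the opposite strand, had 4 and 5 UMIs. Of the other inhibitors of metalloproteinases, Timp2 had 82 UMIs in the Casp8-mutant and 133 in the Mlkl-null library (ratio 1.47, 1.10 to 1.94), Timp3 had 27 and 59 (ratio 1.10, 0.662 to 1.74), and Timp4 had 1 and 1.

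C3 (chromosome 17, 57203970 to 57228136, minus strand) had 218 UMIs (83.8 CPM) in the Casp8-mutant library and 51 UMIs (8.26 CPM) in the Mlkl-null library, a ratio of 10.1 (7.45 to 14.0). Mesothelial-like cells had 90 UMIs (824 CPM) in the Casp8-mutant and 38 UMIs (574 CPM) in the Mlkl-null library, a ratio of 1.42 (0.972 to 2.16) whose interval includes 1. A single Mlkl-null cell held 23 of the 38, and without the highest cell of each library the ratio was 2.66 (1.55 to 5.12). The 7 Casp8-mutant hepatocyte-like cells held 52 UMIs (3261 CPM, 2435 to 4276), the highest level of C3 in any class. In epithelial-like cells C3 had 58 UMIs (28.6 CPM) in the Casp8-mutant and 13 UMIs (2.44 CPM) in the Mlkl-null library, a ratio of 11.4 (6.33 to 23.2, which is 2.66 to 4.54 on the log2 scale). The log2 ratio was 1.59 (1.02 to 2.17) with each library clustered alone and 2.77 with cells gated one by one. The Casp8-mutant level was 0.788 times (0.446 to 1.57) that of the pool of other classes. As for Slpi, the 2 levels could not be told apart, and the epithelial value is not read as expression. Myeloid-like cells had 10 UMIs in the Casp8-mutant and 0 in the Mlkl-null library. C4b, a related complement component, had 10 and 1 over all cells.

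**Figure D4:**
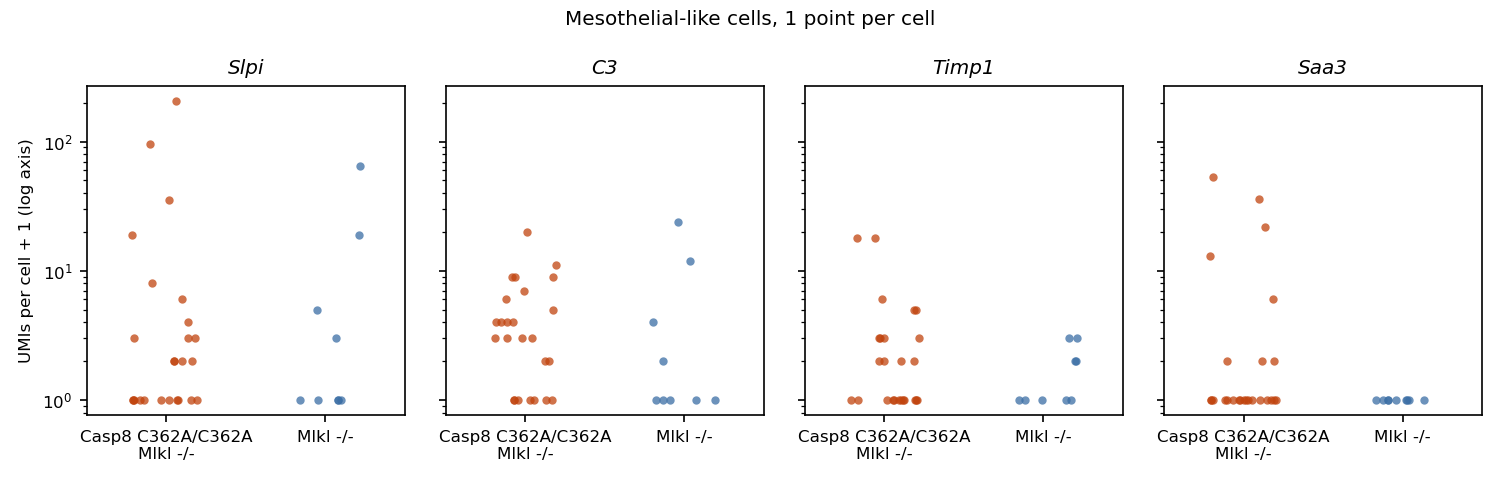
UMIs plus 1 in each mesothelial-like cell (log axis), with 25 Casp8-mutant cells left of 9 Mlkl-null cells in each panel. A single Casp8-mutant cell held 205 of 377 Slpi UMIs, and Saa3 was seen in 8 Casp8-mutant cells and in 0 Mlkl-null cells.

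The mesothelial-like cells of both libraries fell in 1 cluster with 9 of 9 markers detected in each, at a summed 2281 CPM in the Casp8-mutant and 5394 CPM in the Mlkl-null library. Upk3b, a uroplakin of mesothelium, had 41 UMIs (376 CPM) and 77 UMIs (1163 CPM). Markers of the class were thus lower, and Slpi and Timp1 higher, in the Casp8-mutant cells. Krt19, which is also an epithelial marker, was at 760 CPM in the Casp8-mutant and 1889 CPM in the Mlkl-null cells. The fibroblast markers Col1a1 (3325 and 2508 CPM) and Dcn (1319 and 1949 CPM) were high in the class too. A stromal part in its values was not tested. Granulocyte markers were at a summed 3105 CPM (12 of 16 detected) in the Casp8-mutant and 15.1 CPM (1 of 16) in the Mlkl-null mesothelial-like cells, and their part was not tested.

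Fibroblast-like cells added little. In the Casp8-mutant library they had 3 UMIs of Lcn2, 3 of Timp1 and 2 each of Saa3, Slpi and C3, against 2 of Timp1 and 0 of the others in the Mlkl-null library, and with 29 cells each a count of 0 allows, at the same limit of 3, up to 10.3% of cells with a UMI.

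Other genes of these pathways were counted in epithelial-like cells, where the median log2 ratio of all 13968 measured genes was −0.17, 18.2% were at least 2-fold higher in Casp8-mutant cells and 19.2% lower. The lists hold several granulocyte genes, such as Stfa2, Stfa3 and Elane, and granulocyte markers were at 3618 CPM in these cells, against 37.4 CPM in Mlkl-null ones. Their part in the list counts was not tested. Apart from the 6 genes, listed genes were not set beside the pool of other classes, so their ratios are not read as epithelial expression. Of 29 acute phase genes 10 were measured, 7 higher and 2 lower, with a median log2 ratio of 4.79. Saa1, Lcn2 and Saa3 led them, but these and C3 are 4 of the 7 and were selected on this difference. Of the other 6 measured genes 3 were higher and 2 lower (median log2 2.40). At the low end, the fibrinogen gene Fga had 15 UMIs in Casp8-mutant and 106 in Mlkl-null cells (2.62-fold lower), and Apcs, encoding serum amyloid P, had 0 and 37 (at least 4.71-fold lower).

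Of 26 complement genes 15 were measured, 5 higher, C3 among them, and 2 lower (median log2 0.56). After C3, the anaphylatoxin receptor C5ar1 (32 UMIs in Casp8-mutant and 8 in Mlkl-null cells) and properdin, Cfp (18 and 10), had the highest ratios, at 10.0 and 4.62. C8g (4 and 64) and the C3b-cleaving factor I gene Cfi (12 and 219) were 5.47-fold and 6.70-fold lower. In myeloid-like cells, 1 of 7 measured complement genes was higher and 3 were lower, where 13.3% of all genes were higher and 11.3% lower.

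Of 35 protease inhibitor genes 22 were measured, 9 higher, Slpi among them, and 1 lower (median log2 0.32). The stefins Stfa2 and Stfa3, cysteine protease inhibitors, had ratios of 350 (93.0 to 20794) and 92.7 (31.0 to 967), and Wfdc21 had 230 (60.5 to 13655), with 200, 88 and 131 UMIs in Casp8-mutant and 1, 2 and 1 in Mlkl-null cells. Cst6, a cystatin, had 32 and 763 UMIs (8.97-fold lower), and Wfdc15b had 4 and 20. Of 25 proteases 16 were measured, 5 higher and 3 lower (median log2 0.28). The neutrophil serine proteases led, with Elane at 52 and 0 UMIs, Ctsg at 25 and 0, and Prtn3 at 122 and 6 in Casp8-mutant and Mlkl-null cells. Elane UMIs came from 12 Casp8-mutant cells, 1 of which held 20. The digestive proteases Cela1 (23 and 245) and Prss2 (6 and 202) were 3.99-fold and 11.9-fold lower.

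Among 16 genes of iron and siderophore handling, 11 were measured, 4 higher, Lcn2 among them, and 2 lower (median log2 −0.18). Besides Lcn2, the haptoglobin gene Hp had 68 UMIs in Casp8-mutant and 7 in Mlkl-null cells, and the phagosomal metal transporter gene Slc11a1 had 17 and 5. Ferritin light chain, Ftl1 (3450 and 20050), and the iron importer gene Slc11a2 (90 and 650) were 2.22-fold and 2.74-fold lower.

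Of 15 inducing cytokines 6 were measured, 4 higher and 1 lower (median log2 2.48). Osm had 81 UMIs in Casp8-mutant and 0 in Mlkl-null cells, Il1b had 312 and 21, and Tnf had 20 and 7. Lif was 5.22-fold lower (1 and 20) and Il18 1.51-fold lower (44 and 176). Of 21 genes for cytokine and Toll-like receptors and their antagonists 14 were measured, 4 higher and 2 lower (median log2 0.54). The interleukin-1 antagonist gene Il1rn (148 and 3), the decoy receptor gene Il1r2 (62 and 7) and Tlr2 (30 and 6) led, and Il10rb (89 and 478) and Il11ra1 (3 and 50) were lowest. In Casp8-mutant myeloid-like cells Osm, Il1b, Tnf, Il1rn, Il1r2 and Tlr2 were at 91.4, 1123, 16.1, 355, 226 and 32.2 CPM. Casp8-mutant epithelial-like cells had lower levels of each, at 39.9, 154, 9.85, 72.9, 30.5 and 14.8 CPM.

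All 18 transcription factor and feedback genes were measured, 7 higher and 1 lower (median log2 0.46). Bcl3, a nuclear IkappaB protein gene, had 149 UMIs in Casp8-mutant and 61 in Mlkl-null cells (ratio 6.37, 4.72 to 8.77). Relb, a subunit of NF-kappaB, had 42 and 34 (ratio 3.23). Cebpa (78 and 518) was 2.52-fold lower. Of 17 genes for receptors of the encoded proteins 8 were measured, 3 higher and 2 lower (median log2 −0.37). The formyl peptide receptor gene Fpr1 had 33 and 0 UMIs, and Itgam, a subunit of complement receptor 3, had 16 and 14. The scavenger receptor genes Lrp2 (6 and 57) and Cd36 (25 and 901) were 3.38-fold and 13.5-fold lower.

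Likeness of profile was measured as the Pearson correlation of log2(CPM + 10) over epithelial-like, enteroendocrine-like, fibroblast-like and myeloid-like classes in both libraries, 8 points that share libraries and depth, among 9449 genes. The genes followed here were selected on the difference between the libraries. A gene higher in the Casp8-mutant library can correlate with them for that reason, and its part was not tested. Lcn2, Slpi and C3 in Casp8-mutant epithelial-like cells were, besides, not read as expression above. The likenesses are therefore given as a description. Saa3 was closest to the interferon-stimulated genes Oasl2 (0.979), Rsad2 (0.964) and Irgm1 (0.943). Lcn2 was closest to Slpi (0.977) and to the granulocyte genes S100a9 (0.973) and S100a8 (0.973), and Slpi to Slfn4 (0.987), Lcn2 (0.977) and Hp (0.973). Timp1 was closest to Tgfb2 (0.978) and C3 to Arhgef10l (0.990). The Timp1 profile rests on few UMIs and is not read. In the Casp8-mutant and Mlkl-null libraries it had 14 and 1 in epithelial-like, 3 and 2 in fibroblast-like, 2 and 0 in myeloid-like and 0 and 0 in enteroendocrine-like cells. The Saa1 profile had 1 point above 0, so its nearest gene, Mcpt2, is not read. With classes of at least 5 cells, which brings in the mesothelial-like cells and gives 16 points, Lcn2 was again closest to S100a8 (0.975), whereas Slpi was closest to C3 (0.924), C3 to the mesothelial marker Lrrn4 (0.942), Timp1 to Pdpn (0.937) and Saa3 to Gbp3 (0.907).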

How the data were processed

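The deposited values are raw UMI counts for each gene in each barcode of 2 libraries (10x Chromium Single Cell 3′ kit v2), per the labels' protocols, and they were whole numbers throughout. Cell Ranger 3.0.2, Seurat 3.0 and mm10 appear in the submitters' processing notes, without their roles. Totals were 2804929 UMIs in the Casp8-mutant and 6290008 UMIs in the Mlkl-null library. Barcodes with under 500 genes (139 Casp8-mutant, 39 Mlkl-null) and doublets called by Scrublet (2 and 4) were removed. So few doublet calls mean that doublets may remain. A limit of 20% mitochondrial UMIs removed none.

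Cells of both libraries were clustered together in scanpy 1.11.5 (2000 variable genes, 30 components, 15 neighbours, Leiden resolution 1), without the 6 genes and sex-linked genes, and cells outside the epithelium were clustered again at resolution 2. That second step and the naming rule were settled after the first clusters and the counts of the 6 genes in them had been seen. The mesothelial-like, granulocyte-like and hepatocyte-like breakdown, the pool of other classes, haemoglobin-rich barcodes and values without the highest cell were also added after seeing the data. Members and gene lists were chosen with earlier results of these data known.

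UMIs were summed per class and library and divided by the class total (CPM). Ratios are Casp8-mutant over Mlkl-null with 0.5 UMI added, a gene with at least 20 UMIs over both libraries was measured, and at least 2-fold counted as higher or lower. Intervals are exact Poisson for levels, conditional exact for ratios and Clopper-Pearson for shares, while a count of 0 is given a limit of 3 counts. The ratio code was tested on simulated data. The text names the 6 genes, 7 relatives, and from each list in epithelial-like cells the 3 highest and 2 lowest measured ratios, besides up to 3 genes of nearest profile. Some genes that this rule names are not reported here. Gene names and coordinates are from GENCODE M21, and promoter sequences from RefSeq GRCm38.p6, where the 6 genes and Saa2 all matched.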

Additional observations from a re-analysis of the deposited data

Results flagged for a closer look

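The Saa3 ratio was 38.7 (22.4 to 79.2) in epithelial-like cells and 0.841 (0.200 to 3.26) in myeloid-like cells. The point values lie on opposite sides of 1, the difference between classes was not tested, and the myeloid-like value rests on 5 Casp8-mutant and 6 Mlkl-null UMIs.

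Barcodes with over 50% haemoglobin UMIs numbered 123 in the Casp8-mutant and 52 in the Mlkl-null library, before filtering. No filter was set on haemoglobin, so those that passed the other filters entered the values over all cells. Lcn2 was at 518 CPM of their other UMIs (335 to 765, from 25 UMIs) in the Casp8-mutant library, against 0 UMIs in the Mlkl-null library. Slpi was at 414 CPM (253 to 640, from 20 UMIs), against 1 UMI. S100a8 had 347 UMIs in these Casp8-mutant barcodes and 1 in the Mlkl-null ones.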

How the results depend on the processing

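No paired analysis was possible because there is 1 library per genotype. Part of the 256 recomputed values of 16 log2 ratios could not move. Changing the fold cut-off or the UMI filter alters counts of genes and no ratio. New clusters or gates leave ratios over all cells as they were, and leaving out a cluster or class does so for the other classes. Of the 256, 255 were above 0, the direction the genes were selected on. Inside the interval of the reported value lay 239 of the 256, though 10 rested on under 20 UMIs. A further 4 gave no value because neither library kept a UMI: Saa1 in epithelial-like and in all cells and Saa3 in mesothelial-like cells under the granulocyte marker filter, and Lcn2 in myeloid-like cells with at least 1000 genes. The exception in direction was Slpi in mesothelial-like cells, at −0.87 without cells holding 3 or more granulocyte marker UMIs, which leaves 2 Casp8-mutant cells. With that filter the number of higher genes was 1 in epithelial-like, 1 in mesothelial-like, 0 in myeloid-like and 3 among all cells, with 1, 2, 0 and 3 genes measured. The myeloid-like number was also 0, with 0 measured, when at least 1000 genes per cell were required, when cells were gated one by one and when cells were thinned to 2000 UMIs. With no filter on UMIs it was 4 in myeloid-like and 5 in fibroblast-like cells, because more genes entered, and gating gave 1 in fibroblast-like cells. With each library clustered alone the epithelial log2 ratios of Slpi and C3 were 1.90 and 1.59, and the cause was not tested. No mesothelial-like class with cells of both libraries formed at resolution 0.5, with each library alone or with gating. Of 96 thinned shares of cells, 28 left their interval. A second clustering at resolution 1, leaving out the 275 Mlkl-null cells of the cluster led by Gpx3 and Afp, leaving out granulocyte-like and hepatocyte-like cells, leaving out the highest cell, and all mesothelial-like alternatives were chosen after seeing the data. Depth limits fibroblast-like cells most.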
